A study of Mus musculus with 12 samples.

Results

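Genes of fibroblasts, pericytes and the extracellular matrix were followed in sorted thymic epithelial cells (TEC) of C57BL/6 mice. The 35 genes were given by symbol, and each was found by its Entrez ID among the 27179 genes counted in every library. They were chosen with earlier results of these data known. Counts and medians of the members set against all tested genes are therefore description and not independent support. They comprised 20 matrix genes, 8 genes of fibroblast receptors, surface proteins and regulators, and 7 contractile or mural genes. RNA had been sequenced from cortical TEC (cTEC) and from medullary TEC with high MHC class II (mTEChi), with 3 libraries of each from mice lacking HOIL in TEC and 3 of each from control mice, 12 in all. HOIL-deficient mice were Foxn1creT/+ HOIL lox/lox, and controls were Foxn1cre+/+ Hoil lox/lox, so both carried the floxed alleles and the Cre driven by Foxn1, a TEC gene, was present in the HOIL-deficient mice. Cells had been gated as CD45-, TER-119-, CD31- and EpCAM+, which leaves out blood, endothelial and EpCAM-negative stromal cells by design. cTEC were MHC II+, Ly51+ and UEA1-, and mTEChi were MHC II high, Ly51- and UEA1+. Replicate 3 of both HOIL-deficient groups was labelled female and the other 10 libraries male. The ages of the mice are not given in the labels, nor do they say whether replicates were separate animals, so p-values measure only the spread between these samples, which may be technical.

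Fibrillar collagens, fibronectin and small proteoglycans form the interstitial matrix, and type IV collagen with laminin and nidogen forms the basement membrane on which epithelia rest. In the thymus, mesenchymal cells of the capsule and septa make most of the interstitial matrix, while pericytes and smooth muscle cells around vessels carry contractile proteins. Epithelial cells also make basement membrane components and can switch on mesenchymal and contractile genes, so many of these transcripts are not specific to 1 cell type. In bulk RNA, fewer cells of a type and less RNA per cell cannot be told apart.

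Library totals ranged from 7941217 to 14274333 counts. Levels are given as CPM, counts scaled to the library total with TMM factors, and comparisons between genes as TPM, which also divides by gene length. Rbck1, which encodes HOIL, was at 20.8, 31.3 and 20.6 CPM in HOIL-deficient cTEC and at 185, 235 and 214 CPM in control cTEC. It was at 11.3, 11.8 and 23.4 CPM in HOIL-deficient mTEChi and at 130, 129 and 113 CPM in control mTEChi, so every library matched its label. The 7 cTEC markers summed to 12298 to 12861 CPM in HOIL-deficient cTEC and 25646 to 34889 CPM in control cTEC, against 1577 to 2061 CPM in HOIL-deficient mTEChi and 1747 to 2045 CPM in control mTEChi. All 7 were lower in HOIL-deficient than in control cTEC. The 7 mTEC markers summed to 3590 to 4300 CPM and 3568 to 3734 CPM in HOIL-deficient and control cTEC, and to 11490 to 14936 CPM and 8964 to 9870 CPM in HOIL-deficient and control mTEChi. In cTEC 3 of these 7 were called higher on loss of HOIL, or 1 without control cTEC replicate 1, and none lower. Their log2 fold changes there ran from -4.40 to 2.73, and 2 were called higher in mTEChi. The 6 markers of all TEC, Epcam and Foxn1 among them, were detected in every group. They summed to 12350 to 13974 CPM in HOIL-deficient cTEC and 15381 to 16505 CPM in control cTEC. None was called there, or 2 as lower without control cTEC replicate 1. In HOIL-deficient and control mTEChi they summed to 4310 to 4520 CPM and 3700 to 4165 CPM, with 3 called higher. Control cTEC replicate 1 stood apart from the other 2 control cTEC libraries, with 3662 CPM summed over 12 thymocyte markers against 1024 and 1444 CPM, and with 141 CPM of Lum against 0.753 and 4.81 CPM. Where leaving out that library moved a member's called fold change by over 1.5 times, or changed a member's call, this is also stated. Counts of calls in the other gene lists are from all libraries unless stated, and some of them changed without that library.

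RefSeq promoter windows of GRCm38.p6, from 250 bases before to 50 bases after a start site, were held for 24 of the 35 members. The CArG box, the site of serum response factor in smooth muscle genes, was searched on both strands. It occurred without a substitution in none of the 24 members and in 1.63% of all 32851 windows, and with at most 1 substitution in 5 members (Acta2, Col1a2, Col6a3, Cspg4 and Twist2) and in 21.1% of all windows. The motif TATAAA, searched on both strands, occurred in 5 members (Col3a1, Dpt, Postn, Twist1 and Vim) and in 13.6% of all windows. Shown here are Acta2 and Vim, which rose in both cell types on loss of HOIL, and Postn, which had a large change in mTEChi, with the matched letters in capitals. The Acta2 stretches lie on the minus strand at chr19:34255438-34255467 and chr19:34255388-34255417, the Vim stretch on the plus strand at chr2:13574267-13574296, and the Postn sequence on the plus strand at chr3:54360857-54361106.
Acta2 upstream match: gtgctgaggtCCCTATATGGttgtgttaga
Acta2 downstream match: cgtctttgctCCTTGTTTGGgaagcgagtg
Vim: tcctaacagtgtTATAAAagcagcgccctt
Postn: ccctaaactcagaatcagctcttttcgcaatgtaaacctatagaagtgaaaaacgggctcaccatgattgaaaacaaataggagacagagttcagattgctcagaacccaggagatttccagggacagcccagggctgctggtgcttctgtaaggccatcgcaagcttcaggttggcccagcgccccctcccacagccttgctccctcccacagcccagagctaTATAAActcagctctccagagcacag
The capitals mark CArG boxes with 1 substitution in Acta2, beginning 84 and 34 bases before the start site of that RefSeq window, and TATAAA in Vim and Postn, beginning 32 and 26 bases before the start sites of theirs. The start sites of the Acta2 and Postn windows lie 212 and 1840 bases inside the outermost ends of the annotated gene ranges, so the printed letters precede 1 annotated start and not the outermost one. These matches describe letters in the windows and say nothing about binding.

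The first question was whether loss of HOIL altered these genes in cTEC. Among matrix members 9 of 20 rose in HOIL-deficient cTEC, as did 5 of 7 contractile and mural members, with Acta2, the smooth muscle actin gene, 3.46 ± 0.56 (SE) higher on the log2 scale. Of the 35 members, 16 rose and 1, Mmp2, fell at an adjusted p under 0.05 in edgeR's quasi-likelihood test, where 12.1% of all 19398 tested genes were called, 6.06% as higher and 6.02% as lower. The median log2 fold change was 1.53 over the 35 members and -0.02 over all tested genes. Together the members took 0.662 to 0.880% of counts in HOIL-deficient cTEC and 0.204 to 0.382% in control cTEC. Libraries of the groups did not overlap for 25 members, 22 higher and 3 lower, against 12.8% of all genes higher and 15.3% lower without overlap. Without control replicate 1, 20 members rose and 2 fell, with a median log2 fold change of 2.46, where 11.5% of all tested genes were called. That library was singled out in part by its level of Lum, a member, so larger fold changes without it follow partly from that choice. Leaving out single libraries gave 9 to 22 called members, and 22 was the number without control replicate 1.

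**Figure D1:**
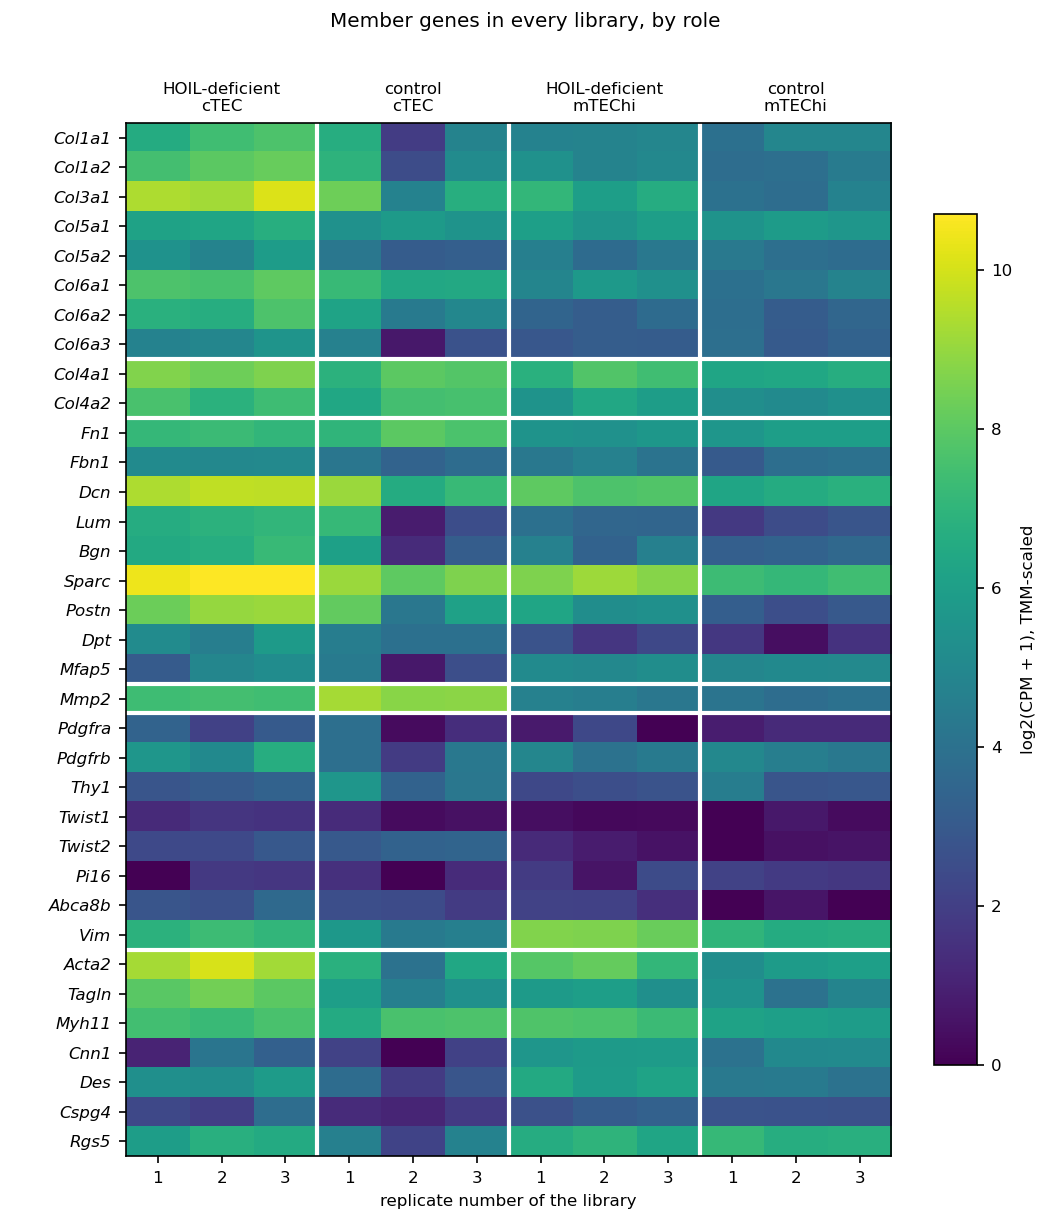
Level of each of the 35 genes (rows, ordered by role, white lines between roles) in each of the 12 libraries (columns, by group and replicate number), as log2(CPM + 1) on the color scale. Sparc, at 1389 to 1664 CPM, is the brightest row in HOIL-deficient cTEC, and control cTEC replicate 1 is brighter than the other control cTEC libraries for Lum, Postn and Bgn.

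Among the 8 interstitial collagen genes, 5 rose in HOIL-deficient cTEC and none fell, with a median log2 fold change of 1.81. Col3a1 (chr1:45311538-45349706), the type III collagen chain, had the highest level of this group per gene length, with 267 ± 107 TPM in HOIL-deficient cTEC (SD, n = 3). It was at 659, 597 and 1126 CPM in HOIL-deficient cTEC and at 324, 26.1 and 103 CPM in control cTEC. The groups did not overlap, although control replicate 1 lay far above the other controls, and the log2 fold change was 2.39 ± 0.67 (SE; adjusted p = 0.0392), or 3.61 without that library (adjusted p = 0.00249). Col5a1, a type V collagen chain that regulates fibril diameter, was at 70.0, 76.2 and 104 CPM in HOIL-deficient cTEC and 41.4, 55.7 and 43.9 CPM in control cTEC. Its log2 fold change was 0.83 ± 0.21 (adjusted p = 0.021). Col5a2, its partner chain, was at 43.5, 26.4 and 60.1 CPM in HOIL-deficient cTEC and 17.7, 7.66 and 8.53 CPM in control cTEC. Its change was larger, 1.93 ± 0.38 on the log2 scale (adjusted p = 0.00602), and neither type V gene overlapped between the groups.

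Type VI collagen, a microfibril that links cells to fibrillar matrix, is made of 3 chains encoded by Col6a1, Col6a2 and Col6a3. Col6a1 (chr10:76708792-76726044) was at 206, 190 and 262 CPM in HOIL-deficient cTEC and 145, 84.9 and 86.7 CPM in control cTEC (log2 fold change 1.05 ± 0.28, adjusted p = 0.0258). Col6a2 was at 109, 100 and 210 CPM in HOIL-deficient cTEC and 72.3, 20.2 and 29.7 CPM in control cTEC (log2 fold change 1.77 ± 0.41, adjusted p = 0.0141, and 2.48 without control replicate 1). Both were higher in all 3 HOIL-deficient libraries than in any control. Col6a3 also did not overlap, with 26 to 45.4 CPM in HOIL-deficient cTEC and 0.628 to 24.9 CPM in control cTEC, but did not pass the test (log2 fold change 1.68, adjusted p = 0.147). The type I collagen genes Col1a1 and Col1a2 did not pass it either. Col1a1 was at 93.8 to 210 CPM in HOIL-deficient cTEC and 2.76 to 102 CPM in control cTEC (log2 fold change 1.85, adjusted p = 0.154). Col1a2 was at 182 to 296 CPM and 4.65 to 121 CPM in the same groups (log2 fold change 2.19, adjusted p = 0.0723).

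Col4a1 (chr8:11198423-11312889) and Col4a2 encode the main chains of basement membrane collagen and lie head to head, with annotated ranges that overlap at their starts, where reads cannot be told apart without strand. Col4a1 was at 402, 323 and 392 CPM in HOIL-deficient cTEC and at 115, 254 and 227 CPM in control cTEC. All HOIL-deficient libraries were higher, by 0.91 ± 0.28 on the log2 scale (adjusted p = 0.0468). Col4a2 overlapped, with 114 to 197 CPM in HOIL-deficient cTEC and 82.9 to 191 CPM in control cTEC (log2 fold change 0.06, adjusted p = 0.977). The Col4a1 to Col4a2 ratio of TPM was 1.98, 2.75 and 2.30 in HOIL-deficient cTEC and 1.35, 1.35 and 1.15 in control cTEC, without overlap. That ratio was not tested.

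Of the 9 matrix glycoprotein and proteoglycan genes, 3 rose in HOIL-deficient cTEC. Sparc (chr11:55394159-55420080), a collagen-binding secreted glycoprotein, had the highest mean TPM of all members in HOIL-deficient cTEC, 1261 ± 128 (SD, n = 3). It was at 1389, 1664 and 1627 CPM in HOIL-deficient cTEC and 539, 264 and 397 CPM in control cTEC. The HOIL-deficient libraries were far above all controls, and the log2 fold change was 1.96 ± 0.22 (adjusted p = 0.000207). Dcn, which encodes the fibril-binding proteoglycan decorin, was at 661, 819 and 799 CPM in HOIL-deficient cTEC and 545, 95.2 and 148 CPM in control cTEC. Its log2 fold change was 1.53 ± 0.46 (adjusted p = 0.0445), with control replicate 1 close to the HOIL-deficient libraries, and 2.64 without it (adjusted p = 4.32e-05). Fbn1, the microfibril protein fibrillin-1, was at 34.0, 30.9 and 31.8 CPM in HOIL-deficient cTEC and 17.3, 9.54 and 12.8 CPM in control cTEC, with no overlap and a log2 fold change of 1.28 ± 0.31 (adjusted p = 0.0159).

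The other 6 genes of that role did not pass the test in cTEC. Log2 fold changes were 1.22 for the proteoglycan gene Lum, 2.12 for the proteoglycan gene Bgn, 1.91 for the periostin gene Postn, 1.15 for Dpt and 1.50 for Mfap5. Bgn, Postn and Dpt were nonetheless higher in every HOIL-deficient library than in any control. Fibronectin, encoded by Fn1, was at 129 to 156 CPM in HOIL-deficient cTEC and 129 to 258 CPM in control cTEC (log2 fold change -0.48, adjusted p = 0.167).

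Mmp2 (chr8:92827290-92853421), a gelatinase that degrades collagen, went the other way. It was at 164, 179 and 170 CPM in HOIL-deficient cTEC and at 617, 442 and 455 CPM in control cTEC. The groups were widely separated, and it fell by 1.56 ± 0.17 on the log2 scale (adjusted p = 0.000171).

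Of the 8 genes for fibroblast receptors, surface proteins and regulators, 2 rose in HOIL-deficient cTEC. Pdgfrb, the PDGF receptor carried by pericytes and fibroblasts, was at 47.9, 32.9 and 102 CPM in HOIL-deficient cTEC and 14.2, 2.64 and 18.8 CPM in control cTEC. No library overlapped, and the log2 fold change was 2.35 ± 0.55 (adjusted p = 0.0141). Vim (chr2:13574311-13582826), the intermediate filament gene of mesenchymal cells, was at 116, 162 and 131 CPM in HOIL-deficient cTEC and 51.4, 20.1 and 23.3 CPM in control cTEC. Its log2 fold change was 2.10 ± 0.30 (adjusted p = 0.000754), again without overlap. The remaining 6 did not pass. Pdgfra, the PDGF receptor that defines most fibroblasts, was at 3.2 to 9.61 CPM in HOIL-deficient cTEC and 0.251 to 14.0 CPM in control cTEC. The surface gene Thy1, which thymocytes also express, was at 6.15 to 9.23 CPM in HOIL-deficient cTEC and 9.29 to 48.4 CPM in control cTEC (log2 fold change -1.73, adjusted p = 0.065). Twist1, Twist2, Pi16 and Abca8b lay between 0 and 11.8 CPM in all cTEC libraries.

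The contractile and mural genes had the highest median log2 fold change of any role, 2.29, with 5 of 7 higher. Without control replicate 1 their median was 2.57, below the 2.94 of the interstitial collagen genes. Acta2 (chr19:34240336-34255585), whose promoter stretches are printed above, was at 615, 1075 and 600 CPM in HOIL-deficient cTEC and 109, 15.3 and 83.2 CPM in control cTEC. All HOIL-deficient libraries were several-fold above every control (log2 fold change 3.46 ± 0.56, adjusted p = 0.00232). Tagln (chr9:45929628-45936058), the actin-binding protein transgelin, was at 245, 340 and 259 CPM in HOIL-deficient cTEC and 62.4, 23.9 and 40.0 CPM in control cTEC. It rose by 2.74 ± 0.37 on the log2 scale (adjusted p = 0.000593). Des, the muscle intermediate filament desmin, was at 39.5, 37.1 and 57.2 CPM in HOIL-deficient cTEC and 12.7, 2.64 and 6.02 CPM in control cTEC. The log2 fold change of Des was 2.63 ± 0.40 (adjusted p = 0.00137), or 3.34 without control replicate 1, and neither gene overlapped between the groups.

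Rgs5 (chr1:169655501-169695813), a G protein signalling regulator used as a pericyte marker, was at 60.9, 107 and 93.3 CPM in HOIL-deficient cTEC and 24, 3.39 and 25.5 CPM in control cTEC. Its log2 fold change was 2.29 ± 0.48 (adjusted p = 0.00782), without overlap. Cspg4, the pericyte proteoglycan NG2, was low, at 4.02, 2.91 and 13.1 CPM in HOIL-deficient cTEC and 1.49, 1.13 and 2.51 CPM in control cTEC. It rose by 1.96 ± 0.56 on the log2 scale (adjusted p = 0.0347), with HOIL-deficient replicate 3 well above the other libraries. Myh11 (chr16:14194527-14292188), the smooth muscle myosin heavy chain, did not follow the other contractile genes in cTEC. It was at 175, 154 and 194 CPM in HOIL-deficient cTEC and 92.7, 200 and 210 CPM in control cTEC, with the HOIL-deficient values inside the control range (log2 fold change 0.06 ± 0.25, adjusted p = 0.969). Cnn1, the thin filament protein calponin, was at 1.12 to 17.0 CPM in HOIL-deficient cTEC and 0 to 3.27 CPM in control cTEC (log2 fold change 2.00, adjusted p = 0.127).

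**Figure D2:**
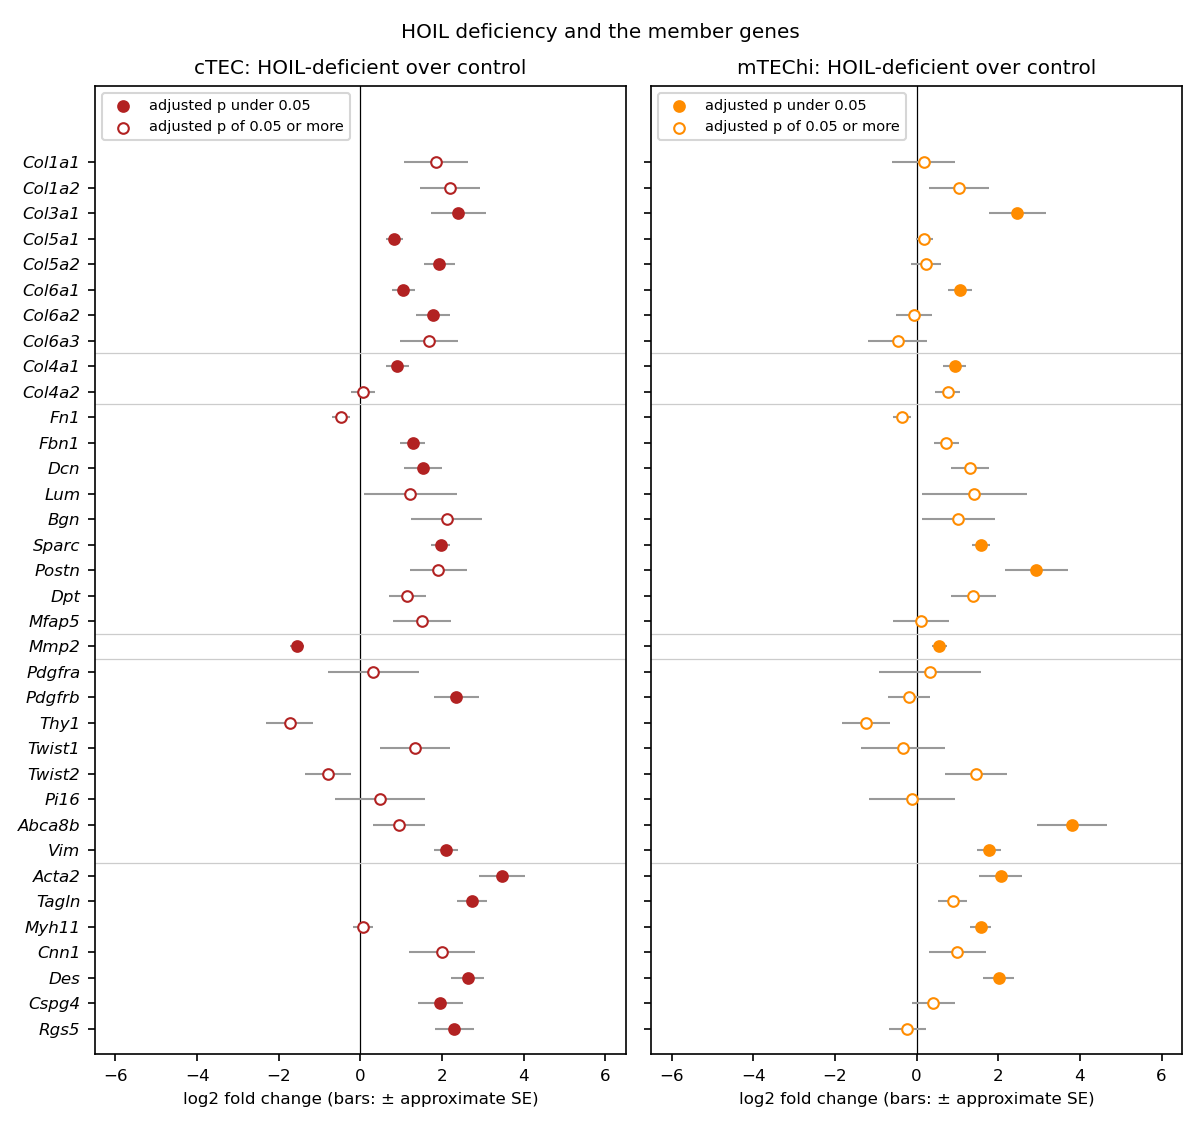
Log2 fold change (x axis) of each member (y axis, ordered by role, gray lines between roles), HOIL-deficient over control, in cTEC on the left and mTEChi on the right, with bars of ± approximate SE. Filled points passed an adjusted p of 0.05 (17 members in cTEC, 11 in mTEChi), Acta2 lies farthest right in cTEC at 3.46, and Mmp2 is the filled point left of 0 in cTEC.

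In 8 of the 17 called members, Col5a2, Sparc, Mmp2, Vim, Acta2, Tagln, Des and Rgs5, the call held under every alternative processing. The number called was 9 without HOIL-deficient replicate 3, the female library, as Col3a1, Col5a1, Col6a1, Col6a2, Col4a1, Dcn, Pdgfrb and Cspg4 were lost at adjusted p of 0.0574 to 0.214. The log2 fold changes of Pdgfrb and Cspg4 were then 1.75 and 1.00. It was also 9 without control replicate 3, when the same 8 genes except Pdgfrb, and Fbn1, were lost at 0.0514 to 0.143. With males only, 9 were called. Without control replicate 1, 22 members were called, 14 of them among the original 17. The genes gained were Col1a1, Col1a2, Col6a3, Lum, Bgn, Postn, Mfap5 and Fn1, with log2 fold changes of 3.40, 3.64, 3.42, 5.30, 4.54, 3.40, 3.04 and -0.71, and those lost were Col5a1, Col4a1 and Cspg4 at adjusted p of 0.0558, 0.107 and 0.083. Leaving out HOIL-deficient replicate 1 or 2 or control replicate 2 ended calls only of Dcn (adjusted p = 0.0648, 0.105 and 0.0871), Col4a1 (0.105 and 0.0647, not lost without control replicate 2), Col3a1 (0.0807 without HOIL-deficient replicate 2), and Cspg4, Col6a1 and Fbn1 (0.112, 0.0917 and 0.061 without control replicate 2). With limma-voom, Col1a1, Col1a2, Col6a3, Lum, Bgn and Postn were also called, at adjusted p of 0.00875 to 0.0271, and Cspg4 was lost (0.0767). DESeq2 also called Col1a2 (0.0429) and Thy1 (0.0277). A fit of the cTEC libraries alone lost Col3a1, Col4a1, Dcn, Pdgfrb and Cspg4 (0.0506 to 0.137), and one with no filter on low counts lost Col3a1 and Dcn (0.104 and 0.108).

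Markers of some other cell types also differed between the cTEC groups, in both directions, where 6.06% of all tested genes were called higher and 6.02% lower. The 15 endothelial markers summed to 178 to 542 CPM in HOIL-deficient cTEC and 42.4 to 83.4 CPM in control cTEC, with 13 of 15 higher, and Erg was at 0 in all control cTEC libraries. The 8 Schwann cell markers summed to 270 to 343 CPM and 128 to 169 CPM in these groups, with 4 higher. The 10 adipocyte markers summed to 359 to 513 CPM in HOIL-deficient cTEC and 102 to 218 CPM in control cTEC, with 7 higher and Lep at 0 in both. The 12 thymocyte markers summed to 392 to 742 CPM in HOIL-deficient cTEC and 1024 to 3662 CPM in control cTEC, with 11 lower, or 4 lower without control replicate 1. The endothelial markers called without that library were 10. The 8 myeloid markers summed to 29.0 to 99.5 CPM and 13.5 to 22.7 CPM in HOIL-deficient and control cTEC (1 higher), and the 5 mesothelial markers to 59.2 to 144 CPM and 24.6 to 78.9 CPM (1 higher). The part of these cells in the members' changes was not tested. The 10 skeletal muscle markers summed to 9.83 to 31.2 CPM in HOIL-deficient cTEC and 7.53 to 20.5 CPM in control cTEC. None of them was called, or 1 as higher without control replicate 1. Desmin is also a skeletal muscle protein, and the part of muscle cells in the change of Des was not tested.

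The same question was asked in mTEChi, where a smaller set of members rose on loss of HOIL. Sparc, Vim, Acta2, Des and Myh11 rose by 1.57 to 2.06 on the log2 scale, and Col3a1, Postn and Abca8b by more, from low levels. Of the 35 members, 11 rose and none fell by edgeR, where 19.9% of all tested genes were called, 11.3% as higher and 8.59% as lower. A positive log2 fold change was found for 27 members, with a median of 0.89 over the 35 against -0.03 over all tested genes. The members took 0.226 to 0.269% of counts in HOIL-deficient mTEChi and 0.100 to 0.115% in control mTEChi. Libraries did not overlap for 17 members that were higher and 1 that was lower, where 22.3% and 22.5% of all genes did so.

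RNA composition differed between the mTEChi groups beside these results. Mitochondrial transcripts made up 1.71 to 1.91% of counts in HOIL-deficient mTEChi and 3.19 to 8.93% in control mTEChi, and Malat1, a nuclear RNA, 0.713 to 0.983% and 3.29 to 5.13%. The 15 endothelial markers summed to 336 to 844 CPM in HOIL-deficient mTEChi and 146 to 197 CPM in control mTEChi, with 10 of 15 higher. The 8 Schwann cell markers summed to 137 to 188 CPM in HOIL-deficient mTEChi and 94.6 to 111 CPM in control mTEChi, with 4 higher. The 12 thymocyte markers summed to 171 to 308 CPM and 147 to 245 CPM in these groups, and none was called. The 10 adipocyte markers summed to 1156 to 1565 CPM and 956 to 2307 CPM in HOIL-deficient and control mTEChi (2 higher), the 8 myeloid markers to 861 to 1094 CPM and 839 to 1166 CPM (none called), and the 5 mesothelial markers to 420 to 513 CPM and 411 to 473 CPM (1 lower). No marker of these 6 lists was at 0 in all libraries of an mTEChi group. The part of any of these in the members' changes was not tested.

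In HOIL-deficient mTEChi, 2 of the 8 interstitial collagen genes rose. Col3a1 was at 135, 63.1 and 99.0 CPM in HOIL-deficient mTEChi and 14.8, 13.2 and 25.6 CPM in control mTEChi. The groups were well apart, with a log2 fold change of 2.47 ± 0.70 (adjusted p = 0.028). Col6a1 was at 28.5, 54.6 and 40.3 CPM in HOIL-deficient mTEChi and 14.6, 17.9 and 26.8 CPM in control mTEChi. Its log2 fold change was 1.06 ± 0.29 (adjusted p = 0.0208), with the lowest HOIL-deficient library just above the highest control. The type I, type V and other type VI collagen genes were not called, with log2 fold changes of -0.47 for Col6a3 to 1.03 for Col1a2. Relative to Col1a1, Col3a1 stood at 4.37, 2.03 and 2.84 in TPM in HOIL-deficient mTEChi and at 0.860, 0.384 and 0.744 in control mTEChi, so Col3a1 exceeded Col1a1 in every HOIL-deficient library and in no control. That ratio was not tested.

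Col4a1 was at 110, 220 and 171 CPM in HOIL-deficient mTEChi and 78.1, 83.1 and 101 CPM in control mTEChi. It rose by 0.93 ± 0.28 on the log2 scale (adjusted p = 0.0307), without overlap. Col4a2 also did not overlap, with 44.5 to 84.9 CPM in HOIL-deficient mTEChi and 33.5 to 40.3 CPM in control mTEChi, but did not pass (log2 fold change 0.77, adjusted p = 0.0931).

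Sparc was at 398, 568 and 427 CPM in HOIL-deficient mTEChi and 160, 137 and 168 CPM in control mTEChi. All HOIL-deficient libraries were above every control (log2 fold change 1.58 ± 0.22, adjusted p = 0.000574). Postn (chr3:54359267-54391041), which encodes periostin, a matrix protein that binds integrins and collagen, was at 77.1, 36.7 and 41.0 CPM in HOIL-deficient mTEChi and 8.27, 4.99 and 7.0 CPM in control mTEChi. It did not overlap and rose by 2.93 ± 0.78 on the log2 scale (adjusted p = 0.0215). In cTEC Postn was at 314, 518 and 546 CPM in HOIL-deficient libraries and 280, 18 and 68.6 CPM in controls, where control replicate 1 was near the lowest HOIL-deficient library and the test was not passed (log2 fold change 1.91 ± 0.70, adjusted p = 0.101). Dcn, at 206 to 265 CPM in HOIL-deficient mTEChi and 76.6 to 110 CPM in control mTEChi, was not called (log2 fold change 1.31, adjusted p = 0.06). Fbn1, at 16.1 to 24.7 CPM and 7.11 to 15.1 CPM in the same groups, was not called either (log2 fold change 0.73, adjusted p = 0.11). Lum, at 10.2 to 14.4 CPM and 2.45 to 6.03 CPM, did not overlap but did not pass (log2 fold change 1.42, adjusted p = 0.48), and Dpt, Bgn, Mfap5 and Fn1 had log2 fold changes of 1.39, 1.02, 0.11 and -0.36 without a call.

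Mmp2, which had fallen in cTEC, was at 25.2, 22.9 and 17.9 CPM in HOIL-deficient mTEChi and 16.4, 13.3 and 15.1 CPM in control mTEChi. It was called higher by 0.56 ± 0.18 on the log2 scale (adjusted p = 0.0425), with HOIL-deficient replicate 3 close to control replicate 1. That call was lost under 9 alternatives, among them RLE scaling (adjusted p = 0.0873), DESeq2 (adjusted p = 0.0779) and limma-voom (adjusted p = 0.174).

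Of the surface and regulator genes, Vim and Abca8b rose in mTEChi. Vim was at 412, 390 and 303 CPM in HOIL-deficient mTEChi and 128, 96.2 and 99.9 CPM in control mTEChi, without overlap (log2 fold change 1.77 ± 0.29, adjusted p = 0.00137). Abca8b, a lipid transporter gene, was at 3.35, 3.21 and 1.69 CPM in HOIL-deficient mTEChi and 0, 0.519 and 0 CPM in control mTEChi, which were 0, 5 and 0 counts. It was called with a log2 fold change of 3.80 ± 0.86 (adjusted p = 0.00792), a value that depends on the prior count at such levels. In cTEC Abca8b was at 6.15, 5.05 and 11.8 CPM in HOIL-deficient libraries and 4.95, 4.39 and 2.61 CPM in controls, without overlap but not called (log2 fold change 0.95 ± 0.63, adjusted p = 0.371). Pdgfrb was at 29.1, 15.6 and 19.4 CPM in HOIL-deficient mTEChi and 31.4, 23.1 and 18.5 CPM in control mTEChi, with the groups interleaved (log2 fold change -0.19 ± 0.52, adjusted p = 0.84). Pdgfra, Thy1, Twist1, Twist2 and Pi16 stayed between 0 and 5.71 CPM in HOIL-deficient mTEChi and between 0 and 22.5 CPM in control mTEChi, and none was called.

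Of the contractile and mural genes, 3 of 7 rose in mTEChi. Acta2 was at 236, 291 and 136 CPM in HOIL-deficient mTEChi and 36.6, 58.2 and 64.3 CPM in control mTEChi (log2 fold change 2.06 ± 0.53, adjusted p = 0.0179). Myh11 was at 214, 203 and 158 CPM in HOIL-deficient mTEChi and 69.8, 64.3 and 59.5 CPM in control mTEChi (log2 fold change 1.57 ± 0.25, adjusted p = 0.00126). Both lay above all controls in every HOIL-deficient library. Des was at 88.9, 57.1 and 72.3 CPM in HOIL-deficient mTEChi and 19.0, 19.5 and 15.6 CPM in control mTEChi, also without overlap (log2 fold change 2.01 ± 0.39, adjusted p = 0.00328). The 10 skeletal muscle markers, from a tissue that also expresses Des, were all detected in mTEChi and summed to 232 to 283 CPM in HOIL-deficient and 267 to 279 CPM in control mTEChi, with none called. The part of muscle cells in the change of Des was not tested there either.

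The other 4 contractile genes did not pass in mTEChi. Tagln was at 56.5, 63.1 and 39.3 CPM in HOIL-deficient mTEChi and 43.2, 15.6 and 27.1 CPM in control mTEChi, and control replicate 1 lay above 1 HOIL-deficient library (log2 fold change 0.89 ± 0.36, adjusted p = 0.096). Rgs5 was at 97.8, 123 and 78.0 CPM in HOIL-deficient mTEChi and 144, 99.2 and 107 CPM in control mTEChi, with overlap (log2 fold change -0.23 ± 0.45, adjusted p = 0.763). Cspg4 was at 5.28, 7.55 and 8.95 CPM in HOIL-deficient mTEChi and 5.71, 5.40 and 5.31 CPM in control mTEChi (log2 fold change 0.41 ± 0.52, adjusted p = 0.627). Cnn1 was at 47.7 to 58.0 CPM in HOIL-deficient mTEChi and 15.2 to 33.5 CPM in control mTEChi, without overlap, but with an adjusted p of 0.345 (log2 fold change 1.00). Col5a1 and Col5a2, which had risen in cTEC, were at 65.1, 45.1 and 62.5 CPM and at 23.5, 12.2 and 18.4 CPM in HOIL-deficient mTEChi, against 44.5, 58.4 and 48.1 CPM and 19.3, 13.8 and 12.8 CPM in control mTEChi. Both overlapped between the groups.

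The calls of Sparc, Abca8b, Vim, Myh11 and Des in mTEChi held under every alternative, and the other 6 were lost in at least 1. Without control replicate 2, 5 members were called, and Col3a1, Col6a1, Col4a1, Postn, Mmp2 and Acta2 were lost at adjusted p of 0.0541 to 0.126. Without control replicate 1, 6 were called, as the same 6 were lost at 0.0688 to 0.127 and Tagln was gained at 0.0478. Without control replicate 3, 7 were called, with Col3a1, Col4a1, Postn and Mmp2 lost at 0.0542 to 0.101. Without HOIL-deficient replicate 2, 7 were called, with Col6a1, Col4a1, Mmp2 and Acta2 lost at 0.0606 to 0.138. Without HOIL-deficient replicate 1, Col3a1, Postn and Mmp2 were lost at 0.0601 to 0.143, and without HOIL-deficient replicate 3, the female library, Col3a1, Col6a1 and Col4a1 were lost at 0.0506 to 0.0754, leaving 8 each time. With males only, 10 were called, as Col4a1 was lost (0.0808). With no filter on low counts Col3a1, Postn and Acta2 were lost (0.0792, 0.0636 and 0.0584), and with limma-voom Col3a1 and Postn (0.0504 and 0.087). A fit of the mTEChi libraries alone called 15, with Col1a2, Col4a2, Dcn, Lum and Cnn1 gained at adjusted p of 0.0159, 0.0339, 0.000947, 0.019 and 0.0211 and Mmp2 lost (0.11).

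**Figure D3:**
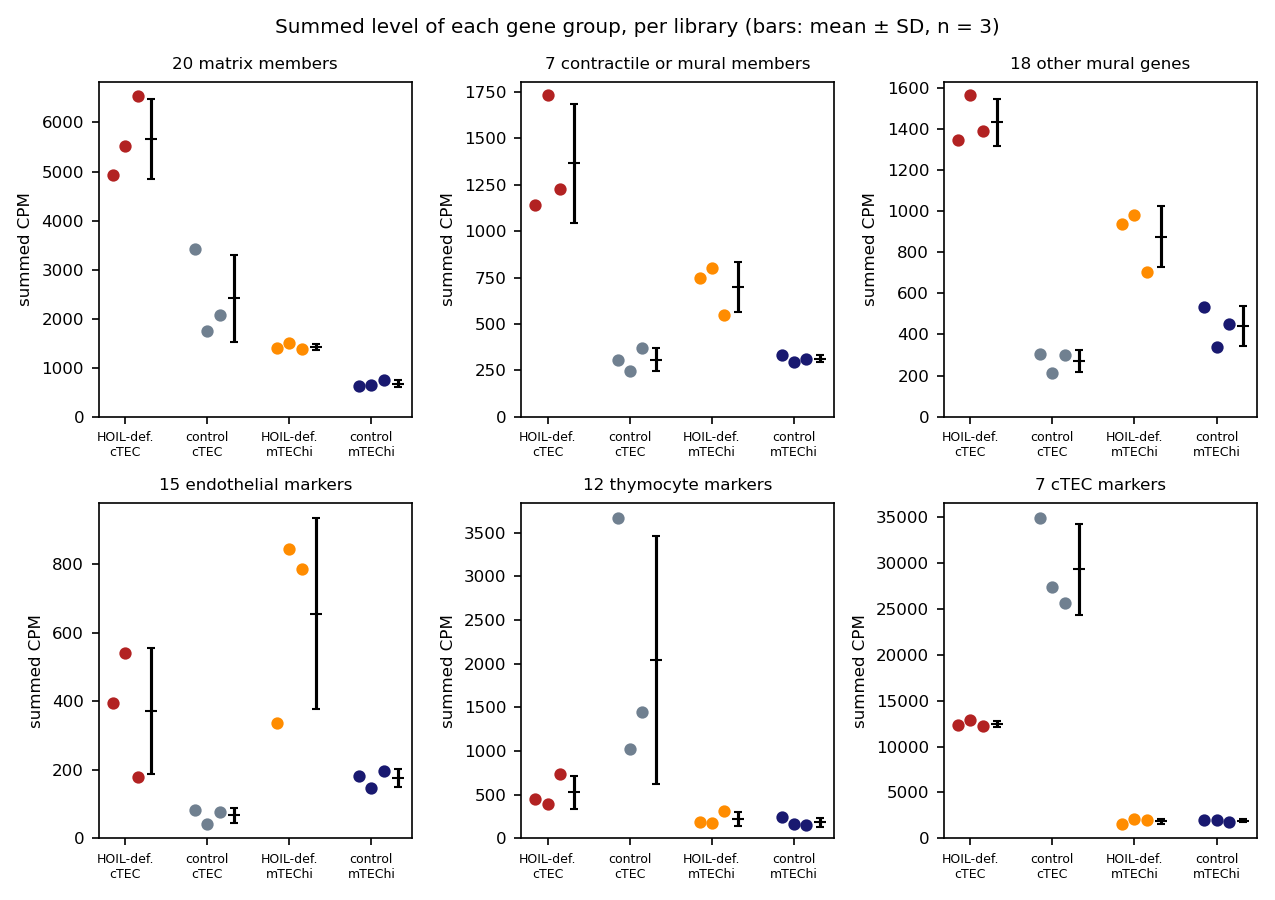
Summed CPM (y axis, starting at 0) in each library (points) of 6 gene sets, by group (x axis), with the mean ± SD of 3 libraries as bars. The 20 matrix members sum to 4920 to 6539 CPM in HOIL-deficient cTEC, above the 1743 to 3423 CPM of control cTEC, and the endothelial markers are also higher in both HOIL-deficient groups.

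The 20 matrix members summed to 5659 ± 819 CPM in HOIL-deficient cTEC, 2413 ± 890 CPM in control cTEC, 1427 ± 65.9 CPM in HOIL-deficient mTEChi and 676 ± 68.0 CPM in control mTEChi (SD, n = 3 each). Control cTEC without replicate 1 summed to 1743 and 2074 CPM. The 7 contractile members summed to 1366 ± 320 CPM in HOIL-deficient cTEC, 307 ± 62.5 CPM in control cTEC, 699 ± 132 CPM in HOIL-deficient mTEChi and 314 ± 19.1 CPM in control mTEChi. In TPM, the contractile sum was 0.299 to 0.504 of the matrix sum in HOIL-deficient cTEC and 0.121 to 0.208 in control cTEC, without overlap. It was 0.513 to 0.720 of the matrix sum in HOIL-deficient mTEChi and 0.643 to 0.812 in control mTEChi, with overlap. A few genes carried these sums. In HOIL-deficient cTEC, Acta2 and Tagln averaged 792 and 328 TPM of a contractile mean of 1307 TPM. Sparc and Dcn averaged 1261 and 677 TPM of a matrix mean of 3384 TPM there. In control cTEC, Mmp2 averaged 299 TPM of a matrix mean of 1292 TPM. Of the 20 matrix members, 9 rose and 1 fell in cTEC and 6 rose in mTEChi. Of the 7 contractile members, 5 rose in cTEC and 3 in mTEChi. Over both cell types, 7 members rose in each comparison (Col3a1, Col6a1, Col4a1, Sparc, Vim, Acta2 and Des), where 1.7% of all tested genes did so. These were 7 of the 16 that rose in cTEC and 7 of the 11 that rose in mTEChi, and over all genes the share was 28% of those that rose in cTEC and 15% of those that rose in mTEChi. In neither comparison were 15 members called, where 71.7% of all tested genes were called in neither.

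Whether the change on loss of HOIL differed between the cell types was tested as the mTEChi effect minus the cTEC effect. The difference was positive for Mmp2 and Myh11, and negative for Rgs5, Tagln and Pdgfrb, so 2 members were called higher and 3 lower, where 9.84% of all tested genes were called, 5.97% as higher and 3.86% as lower. The median difference was -0.55 over the 35 members and 0.09 over all tested genes. For Mmp2 it was 2.12 ± 0.25 on the log2 scale (adjusted p = 0.000744) and held under every alternative. For Myh11, which rose in mTEChi and not in cTEC, it was 1.51 ± 0.35 (adjusted p = 0.0176). Of the contractile genes that rose in cTEC, Rgs5 gave -2.52 ± 0.65 (adjusted p = 0.0274) and Tagln -1.85 ± 0.50 (adjusted p = 0.0332). For Pdgfrb it was -2.54 ± 0.75 (adjusted p = 0.0475). Acta2, Des and Cspg4, with differences of -1.40, -0.62 and -1.55, did not pass (adjusted p = 0.241, 0.501 and 0.207), and no interstitial collagen gene did. The median difference over the members was -1.32 without control cTEC replicate 1, and that of Des -1.32 (adjusted p = 0.0652).

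**Figure D4:**
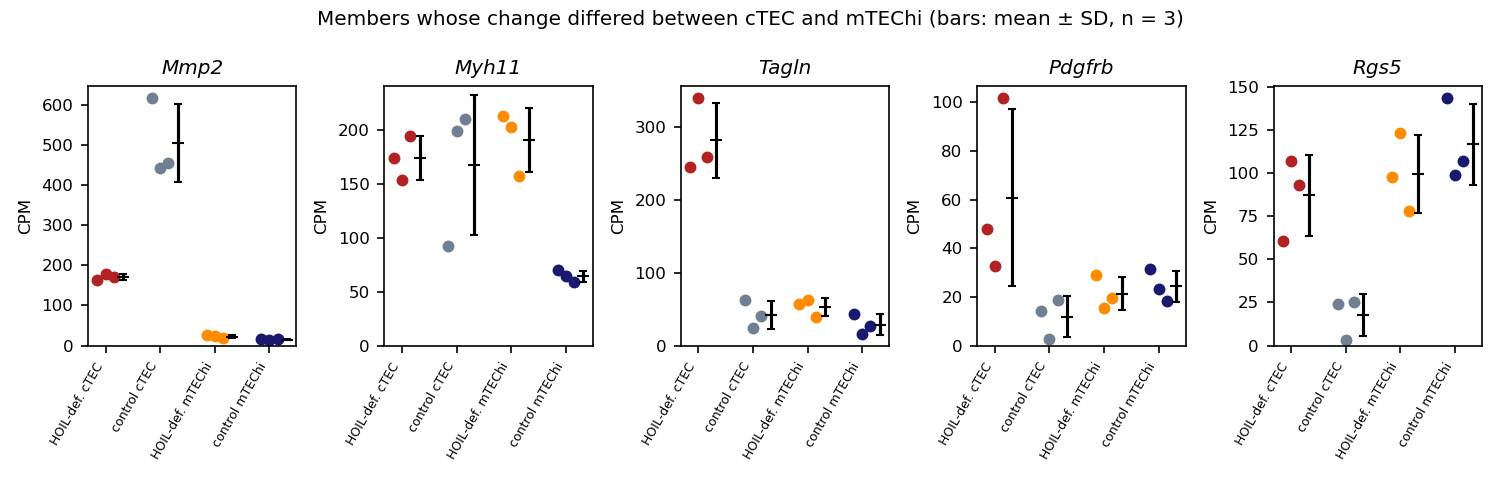
CPM (y axis, starting at 0) of the 5 members whose change differed between the cell types, in each library (points) by group (x axis), with the mean ± SD of 3 libraries as bars. Mmp2 is lower in HOIL-deficient than in control cTEC (164 to 179 against 442 to 617 CPM), Myh11 is higher in HOIL-deficient than in control mTEChi (158 to 214 against 59.5 to 69.8 CPM), and Tagln, Pdgfrb and Rgs5 are higher in HOIL-deficient than in control cTEC.

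The number of members whose change differed was between 1 and 13 when 1 library was left out. Without control cTEC replicate 1 it was 13, 2 higher and 11 lower, where 10.5% of all tested genes were called in either direction. Of the original 5, 4 were kept in that fit and Pdgfrb was lost (adjusted p = 0.0572). That library had been singled out in part by its level of Lum, a member. The 9 gained, all negative, were Col1a1, Col1a2, Col5a2, Col6a2, Col6a3, Dcn, Lum, Bgn and Mfap5, so 5 interstitial collagen genes then passed. It was 1, Mmp2, without control mTEChi replicate 3, where Myh11 was lost at an adjusted p of 0.0546 and Tagln, Rgs5 and Pdgfrb at 0.0605, 0.0551 and 0.0699. It was 2, Mmp2 and Myh11, without HOIL-deficient mTEChi replicate 1 or 3 or control mTEChi replicate 1, where the other 3 were lost at adjusted p of 0.0587 to 0.114. Pdgfrb was also lost without HOIL-deficient cTEC replicate 1 or 3 (adjusted p = 0.056 and 0.113), HOIL-deficient mTEChi replicate 2 (0.103) or control mTEChi replicate 2 (0.0713). Tagln was also lost without HOIL-deficient cTEC replicate 2 (0.0657) or control cTEC replicate 2 or 3 (0.0609 and 0.0698), and Rgs5 without HOIL-deficient cTEC replicate 2 (0.0621). Over the fits that lost a call by leaving out 1 library, the difference was -2.61 to -2.34 for Rgs5, -1.91 to -1.48 for Tagln, -2.82 to -1.93 for Pdgfrb and 1.42 for Myh11, so direction was kept and only the Pdgfrb value without HOIL-deficient cTEC replicate 3, -1.93, moved by over 1.5 times.

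The control libraries, which also served as reference for the HOIL comparisons, were compared between the cell types. In control mTEChi, 12 of 20 matrix members were lower and 4 of 7 contractile members higher than in control cTEC. Of the 35 members, 6 were higher and 15 lower in control mTEChi by edgeR, where 64.2% of all tested genes were called, 37.8% as higher and 26.4% as lower. The median log2 difference was -1.27 over the members and 0.24 over all tested genes. Without control cTEC replicate 1 these medians were -0.16 and 0.33. In that fit 7 members were higher and 13 lower, where 61.8% of all tested genes were called in either direction. Of the matrix members 1, the microfibril gene Mfap5, was higher. Mmp2 differed most, with 14.9 ± 1.57 CPM in control mTEChi and 505 ± 97.3 CPM in control cTEC (log2 difference -5.08 ± 0.20, adjusted p = 4.11e-10). Postn averaged 6.75 ± 1.66 CPM in control mTEChi and 122 ± 139 CPM in control cTEC (log2 difference -4.18 ± 0.80, adjusted p = 0.000724), with control cTEC replicate 1 at 280 CPM against 18 and 68.6 CPM. Without that library the Postn difference was -2.70 (adjusted p = 0.000494). Dpt, which encodes dermatopontin, averaged 1.52 ± 1.07 CPM and 17.0 ± 4.33 CPM in the same groups (log2 difference -3.49, adjusted p = 8.52e-05). Col3a1, Col6a1, Col6a2, Col4a1, Col4a2, Fn1, Dcn, Lum and Sparc were the other 9 lower matrix members, at log2 differences of -1.18 to -3.48.

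Of the 7 contractile members, 4 were higher in control mTEChi and 1 was lower. Cnn1 averaged 27.1 ± 10.4 CPM in control mTEChi and 2.16 ± 1.87 CPM in control cTEC (log2 difference 3.59 ± 0.82, adjusted p = 0.00172). Rgs5 averaged 117 ± 23.6 CPM and 17.6 ± 12.3 CPM in these groups (log2 difference 2.71 ± 0.48, adjusted p = 0.00025). Des and Cspg4 were higher by 1.32 and 1.66 on the log2 scale (adjusted p = 0.00952 and 0.0177). Myh11 was lower, with 64.5 ± 5.17 CPM in control mTEChi and 167 ± 65.0 CPM in control cTEC (log2 difference -1.37 ± 0.25, adjusted p = 0.000306). Vim was higher by 1.77 ± 0.29, while Twist2 and Abca8b were lower by 4.80 and 4.34 from low levels in cTEC. Libraries did not overlap for 7 members that were higher and 13 that were lower in control mTEChi, where 41.2% and 29.6% of all genes did so.

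The cell type calls of Lum, Mfap5, Dcn and Cspg4 were lost when single libraries were left out. Without control cTEC replicate 1, Lum turned to a log2 difference of 0.59, Dcn moved to -0.39 (adjusted p = 0.113) and Cspg4, at 1.56, was lost at 0.051. The differences of Col3a1, Col6a2, Des and Mfap5 moved to -1.87, -1.24, 2.03 and 3.41 without it, against -3.08, -1.94, 1.32 and 1.88 with all libraries, and kept their calls, while Col5a2 and Col6a3 were gained at 0.91 and 1.69 (adjusted p = 0.0499 and 0.0235). Without control cTEC replicate 2, Cspg4 and Mfap5 were lost at adjusted p of 0.0641 and 0.0561 with differences of 1.44 and 1.34, and without control cTEC replicate 3 Mfap5 was lost at 0.109 with 1.60. Leaving out control mTEChi replicate 1, 2 or 3 ended the calls of Lum (0.096, 0.0987 and 0.0807) and Mfap5 (0.0591, 0.0722 and 0.0693), although the differences stayed at -3.77 to -3.18 for Lum and 1.85 to 1.93 for Mfap5. Dcn was lost without control mTEChi replicate 1 (0.0518) at -1.35. With no filter on low counts Lum and Mfap5 were lost (0.0741 and 0.082), and with limma-voom Lum (0.458).

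Other matrix genes moved mostly in the direction of the members, but this list and those below, like the members, were chosen with earlier results of these data known. Their counts are therefore description and not independent support. Over all tested genes, 6.06% were called higher and 6.02% lower in cTEC, and 11.3% and 8.59% in mTEChi. For the difference between the cell types, 5.97% were called positive and 3.86% negative. Of 37 further matrix genes, 19 rose and none fell in HOIL-deficient cTEC, with a median log2 fold change of 1.43, and 12 rose and none fell in HOIL-deficient mTEChi, with a median of 0.81. The basement membrane gene Nid1, which encodes nidogen, had a log2 fold change of 1.75 in cTEC (adjusted p = 0.0019), the leucine-rich proteoglycan gene Prelp 1.94 (adjusted p = 0.00196) and the fibril-associated collagen gene Col14a1 1.67 (adjusted p = 0.002). In mTEChi the laminin gamma chain gene Lamc1 was at 21.2, 28.5 and 24.3 CPM in HOIL-deficient libraries and 6.41, 6.34 and 6.39 CPM in controls (log2 fold change 1.95, adjusted p = 0.00101). The elastic fibre genes Efemp2 and Fbln5 rose by 1.61 and 2.39 there (adjusted p = 0.00141 and 0.00233). The difference between the cell types was called for 7 of the 37, 3 positive and 4 negative, with Col8a1 at -4.90 (adjusted p = 0.00831, and -6.15 without control cTEC replicate 1), Col5a3 at -2.50 (adjusted p = 0.0101) and Efemp2 at 1.69 (adjusted p = 0.0105).

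Of 23 genes that process collagen and matrix, 9 rose and 1, the procollagen protease gene Adamts2, fell in cTEC, and 8 rose and none fell in mTEChi, with median log2 fold changes of 0.91 and 0.37. The metalloproteinase inhibitor Timp2 was at 243, 222 and 237 CPM in HOIL-deficient cTEC and 81.7, 79.4 and 64.2 CPM in control cTEC (log2 fold change 1.64, adjusted p = 6.56e-05). Also higher in HOIL-deficient cTEC were Timp1 by 2.06 (adjusted p = 0.00253) and the collagen crosslinking enzyme gene Loxl2 by 2.43 (adjusted p = 0.00258). Protease activity was not measured. In mTEChi the collagen chaperone gene Serpinh1 was at 53.1, 103 and 102 CPM in HOIL-deficient libraries and 21.0, 23.1 and 24.6 CPM in controls (log2 fold change 1.91, adjusted p = 0.00225). The collagen-modifying genes Crtap and Fkbp10 rose by 1.06 and 1.61 (adjusted p = 0.00412 and 0.008). The call of Fkbp10 was lost with limma-voom (adjusted p = 0.0579). The difference between the cell types was called for 4 of the 23, 1 positive and 3 negative, the negative ones being Timp1 at -2.35, Timp2 at -1.12 and Loxl2 at -2.07 (adjusted p = 0.00866, 0.00886 and 0.0322). Over all tested genes 5.97% were called positive and 3.86% negative in it. The Loxl2 difference lost its call with limma-voom (adjusted p = 0.0619) and without HOIL-deficient cTEC replicate 1, control cTEC replicate 3, HOIL-deficient mTEChi replicate 1 or 2, or control mTEChi replicate 1 (adjusted p = 0.0613 to 0.0784).

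Of 18 further mural genes, 12 rose and none fell in cTEC, with a median log2 fold change of 2.21, and 4 rose in mTEChi, with a median of 0.15. Myl9, the regulatory light chain of smooth muscle myosin, was at 569, 594 and 497 CPM in HOIL-deficient cTEC and 61.0, 40.8 and 74.6 CPM in control cTEC. It was at 47.3, 83.0 and 30.3 CPM in HOIL-deficient mTEChi and 13.1, 6.23 and 8.81 CPM in control mTEChi. Its log2 fold changes were 3.23 in cTEC (adjusted p = 0.000146) and 2.51 in mTEChi (adjusted p = 0.000591). The tropomyosin gene Tpm2 was at 329, 424 and 326 CPM in HOIL-deficient cTEC and 56.5, 40.9 and 39.7 CPM in control cTEC, a log2 fold change of 2.97 (adjusted p = 1.03e-05), and rose by 1.42 in mTEChi (adjusted p = 0.000954). The caldesmon gene Cald1 rose by 2.49 in cTEC (adjusted p = 0.000256), and the pericyte and endothelial adhesion gene Mcam rose by 1.91 in mTEChi (adjusted p = 0.000982). The difference between the cell types was negative for 5 of the 18 and positive for none, with Cald1 at -3.09, Higd1b at -4.07 and Tpm2 at -1.56 (adjusted p = 0.00129, 0.00692 and 0.00811). Of all tested genes 3.86% were called negative and 5.97% positive in it.

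Of 17 PDGF and TGF-beta ligand, receptor and signalling genes, 5 rose and 2 (Tgfbr1 and Smad3) fell in cTEC (median log2 fold change 0.28). In mTEChi 2 rose and 1 fell, with a median of 0.07. These mTEChi counts are near the 11.3% of all tested genes called higher and 8.59% called lower there. The ligand gene Tgfb2 was at 8.05, 13.2 and 12.3 CPM in HOIL-deficient cTEC and 2.90, 2.13 and 5.12 CPM in control cTEC (log2 fold change 1.72, adjusted p = 0.00258). The ligand genes Pdgfc and Pdgfd rose by 2.04 and 2.00 (adjusted p = 0.0109 and 0.0206), although Pdgfd was lost without HOIL-deficient replicate 2 or control replicate 3 (adjusted p = 0.0702 and 0.0807). In mTEChi the TGF-beta co-receptor gene Eng, also an endothelial gene, rose by 2.94 (adjusted p = 0.00592) and the receptor gene Tgfbr2 by 1.33 (adjusted p = 0.0226), which was lost without HOIL-deficient replicate 2 or control replicate 2 or 3 (adjusted p = 0.122, 0.0809 and 0.0555). The ligand gene Pdgfa fell by 0.47 there (adjusted p = 0.0488), a call that was lost in 5 of the 6 fits that left out 1 library, at adjusted p of 0.0879 to 0.176. The difference between the cell types was called for Tgfb2 at -2.03, Pdgfa at -0.90 and Tgfbr1 at 1.10 (adjusted p = 0.00785, 0.0236 and 0.0316). Among all tested genes 5.97% were called positive and 3.86% negative in it. The Pdgfa and Tgfbr1 differences lost their calls in several fits that left out 1 library.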

How the data were processed

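The authors deposited 1 raw count per gene for each of 12 libraries, made from total RNA with the SMART-Seq v4 and Nextera XT kits, and per the submitters' processing notes counted with featureCounts on mm10. Which aligner, annotation, versions and strand setting they used is not given in the sources used here. Entrez IDs were given symbols and coordinates by RefSeq annotation (GRCm38.p6), and 25275 of 27179 had a match. The 35 members and the other gene lists were chosen with earlier results of these data known.

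Counts were tested with edgeR 4.0.16 in R 4.3.3: filterByExpr, TMM scaling and robust quasi-likelihood fits of all 12 libraries with 1 coefficient per group. This left 19398 genes, among them all 35 members, and p-values were adjusted by the Benjamini-Hochberg method over them and called under 0.05. An SE is approximate, the absolute log2 fold change over the square root of F. Alternatives were RLE scaling, no filter, DESeq2 1.42.0, limma-voom (limma 3.58.1), a replicate block, males only, fits of 2 groups, and leaving out each library. Values per library were printed for members called on loss of HOIL or in the difference between cell types and for the member with the highest TPM of each role, and up to 3 called genes of smallest p were named per further list. Scripts were tested on simulated data. Depth was 7941217 to 14274333 counts per library. SMART-Seq reads carry no molecular identifiers, so counts are not independent molecules.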

Additional observations from a re-analysis of the deposited data

Results flagged for a closer look

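For 5 members, the change on loss of HOIL differed between the cell types by edgeR's interaction contrast, the mTEChi effect minus the cTEC effect, where 9.84% of all tested genes were called, 5.97% as higher and 3.86% as lower. The 2 of 35 members called higher are near that background share. On the log2 scale this difference was 2.12 for Mmp2, 1.51 for Myh11, -2.52 for Rgs5, -1.85 for Tagln and -2.54 for Pdgfrb. The Mmp2 effects were 0.56 in mTEChi and -1.56 in cTEC, each past the test, although the mTEChi call was lost under 9 alternatives. Those of Myh11 were 1.57 in mTEChi and 0.06 in cTEC. The effects of Rgs5 were -0.23 in mTEChi and 2.29 in cTEC, those of Tagln 0.89 and 2.74, and those of Pdgfrb -0.19 and 2.35. No group has more than 3 libraries, so single libraries were not tested for standing apart.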

How the results depend on the processing

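Of the members called, 8 of 17 in cTEC, 5 of 11 in mTEChi, 1 of 5 in the difference between cell types and 17 of 21 between control mTEChi and control cTEC kept direction and call under every alternative. With males only, 9 members were called in cTEC and 2 in the difference, and 3 in the difference with no filter on low counts. Leaving out 1 library gave 9 to 22 members in cTEC, 5 to 8 in mTEChi, 1 to 13 in the difference and 19 to 25 between the control cell types. Over RLE scaling, no filter, DESeq2, limma-voom and fits of 2 groups, the number was 12 to 22 in cTEC, 8 to 15 in mTEChi and 19 to 22 between the control cell types. Among members that were not called, direction turned in cTEC for Myh11 with males only (-0.038) and, leaving out 1 library, for Myh11 (-0.24 to 0.25), Col4a2 (-0.23 to 0.26), Pdgfra (-0.24 to 2.78) and Pi16 (-0.063 to 1.04). In mTEChi it turned with limma-voom for Pdgfra (-1.50) and Twist1 (0.25), and leaving out 1 library for Pdgfra (-1.91 to 0.92), Twist1 (-0.90 to 0.90), Col6a2 (-0.25 to 0.14), Pdgfrb (-0.47 to 0.013), Pi16 (-0.81 to 0.39) and Col1a1 (-0.12 to 0.33). Between the control cell types Lum ranged from -4.06 to 0.59. The causes were not tested. RLE scaling moved the median log2 difference of all genes between the control cell types to 0.43, against 0.24 with TMM, and that of the interaction to -0.05, against 0.09.

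The same-numbered libraries of 2 groups correlated at -0.237 to 0.139 in their deviations from the group means. Between HOIL-deficient cTEC and HOIL-deficient mTEChi the values were 0.0724, 0.132 and 0.052, against -0.0966 to 0.0413 for libraries of different number. With 3 libraries per group, this cannot settle whether a number marks the same mouse, and the main fit took the libraries as unpaired. With the replicate number as a block, 17 members were called in cTEC, 12 in mTEChi, 7 in the difference and 21 between the control cell types, and the Col6a1 call in cTEC (adjusted p = 0.0516) and the Lum call between the control cell types (0.186) were lost. Postn in cTEC (0.0389) and Dpt in mTEChi (0.0446) were gained.

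With 3 libraries per group, genes near 0 such as Twist1, Pi16 and Pdgfra had wide errors.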
